A study of Bos taurus with 20 samples.

Results

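A group of 103 genes in bovine muscle stem cells was chosen for a rise that starts on the second day of low serum. Once a small constant was added to each mean, they changed by less than a factor of 2 over the first day. They stood at least 3 times higher at 48 h than at 24 h, and remained above their 24 h level at 96 h. They were chosen from read counts of polyA RNA sequencing among 14636 genes that passed a filter on low counts, out of 27607 genes in the table. The choice used the mean CPM (read counts scaled to library size, with library composition adjusted by TMM) of each time point plus 0.1 CPM. It required at least 1 count at 0 h, a 24 h mean within a factor of 2 of the 0 h mean, and a 48 h mean of at least 1 CPM and at least 3 times the 24 h mean. The means at 48 h and at 72 h had to stay below 1.7 times the 96 h mean, and the gains had to stay below 3 times on the third day and below 2.5 times on the last day. Because every time point entered the choice, the size of each step in these genes is a description and not a test result.

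The cells were satellite cells of the Belgian Blue breed, grown on collagen with 20% fetal bovine serum and then moved at once to a differentiation medium with 2% serum. The 5 groups were cells at 0 h, before the change of medium, and cells at 24, 48, 72 and 96 h of low serum, with 4 replicates each (A to D), which the series describes as biological. Replicates A and B were labelled batch 1 and replicates C and D batch 2, so every time point held 2 libraries of each batch. The labels name no donor, clone or separate culture for a replicate, and p-values therefore measure only the spread between these libraries. All groups share the breed and the cell source, and a culture kept in high serum for the same time was not analysed here.

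Satellite cells are the stem cells of skeletal muscle. On loss of serum growth factors, cultured satellite cells leave the cell cycle, switch on myogenic transcription factors, fuse into multinucleated myotubes and build the contractile apparatus. Genes of this programme are known to come on in waves, with regulators ahead of many structural and metabolic genes. The count table names genes by Ensembl cattle identifiers alone, and 0 of them appeared in the gene table at hand, so the roles of the 103 genes are not given, their sequences are not shown, and the labelled cell type could not be set against its markers.

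Total counts lay between 21100797 and 41998509 per library, and the filtered genes held at least 99.967% of them.

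Together the 103 genes held a small share of all counts that roughly followed the shape of the choice. In replicates A to D, cells at 0 h had summed shares of 0.407, 0.406, 0.396 and 0.4%, and cells at 24 h had 0.525, 0.534, 0.617 and 0.522%. The 48 h libraries held 1.65, 1.65, 1.83 and 1.7%, the 72 h libraries 2.03, 1.99, 2.18 and 2.14%, and the 96 h libraries 2.53, 2.56, 2.54 and 2.4%. The mean share of the 48 h libraries, 1.71 ± 0.0836%, was 3.11 times that of the 24 h libraries, 0.549 ± 0.0453% (SD, n = 4 each). The mean of the 96 h libraries, 2.51 ± 0.0718%, was 6.23 times that of the 0 h libraries, 0.402 ± 0.00506% (SD, n = 4 each). The libraries of neighbouring time points did not overlap in this share. In bulk RNA, more cells that express a gene and more RNA of it per cell cannot be told apart.

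The 3 genes with the most reads at 96 h carried the larger part of the summed share at that time, 1.39 ± 0.0731% against 1.11 ± 0.0141% for the other 100 genes (SD, n = 4 each). The remaining genes as a group thus gained little after 72 h, when they held 1.04 ± 0.0526%, while the leading 3 held 1.05 ± 0.0528% at that time (SD, n = 4 each). A median over genes, which gives each gene the same weight, was 1.40 ± 0.0805, 1.83 ± 0.176, 4.04 ± 0.0652, 4.65 ± 0.0238 and 4.60 ± 0.0859 as log2(CPM + 0.1) in the successive groups from 0 h to 96 h (SD, n = 4 each). This median was nearly the same at the last 2 time points, although more single genes were highest at 96 h than at 72 h.

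**Figure D1:**
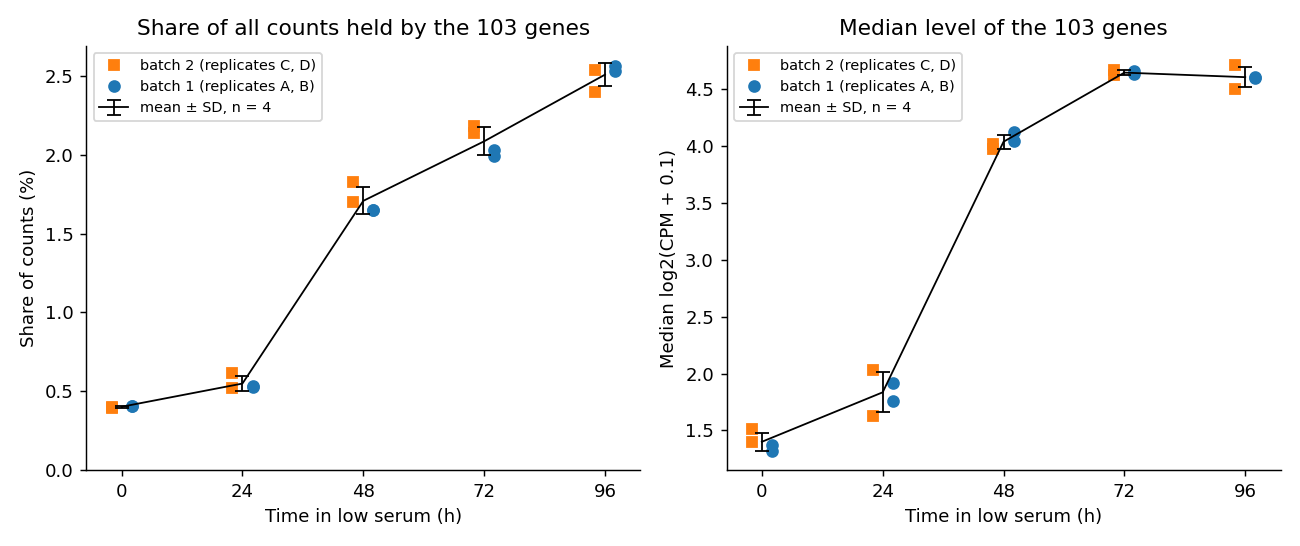
Share of all counts held by the 103 genes (left, percent) and their median level (right, log2 of CPM + 0.1) in each of 20 libraries against time in low serum (h), with batch 2 as squares, batch 1 as circles and the mean ± SD of 4 libraries in black. Replicate C at 24 h lies at 0.617%, above the other 3 libraries of its time at 0.522 to 0.534%, and the share still climbs to 2.51% at 96 h while the median levels off after 72 h.

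The genes covered a wide range of read counts, and CPM is not corrected for gene length, so levels are compared within a gene and not between genes. Mean CPM at 0 h ran from 0.00535 to 1190 with a median of 2.72, and at 96 h from 0.780 to 8750 with a median of 23.8. At 0 h, 39 genes were under 1 CPM, 29 at 1 to under 10, 28 at 10 to under 100, and 7 at 100 CPM or more. Few were close to absent, since 9 genes had under 10 counts over the 4 libraries at 0 h and 4 of these also at 24 h. For such genes the 0.1 CPM added to each mean sets much of the ratio.

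The limits on each day made the second day the steepest step in every gene. The ratio of the 48 h to the 24 h mean had a median of 3.90, with quartiles of 3.30 and 5.87 and a maximum of 29.1. It was below 4 in 56 genes, from 4 to below 8 in 34 and at least 8 in 13, of which 3 passed 16. Every library at 48 h lay above every library at 24 h in 103 genes, as it did for 28% of all genes tested. The edgeR quasi-likelihood test with batch as a term called all 103 genes higher (Benjamini-Hochberg adjusted p under 0.05), beside 31.4% of all genes, but the choice had fixed this outcome. In a typical gene the second day supplied 67.5% of the whole log2 gain from 0 h to 96 h, with quartiles of 59.9 and 81.1%.

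Genes that started with few reads had the steeper second-day ratios. The median ratio was 4.92 for the 39 genes under 1 CPM at 0 h, 4.21 for the 29 at 1 to under 10 CPM, 3.47 for the 28 at 10 to under 100 CPM and 3.44 for the 7 at 100 CPM or more. The class with most reads reached at most 3.84, against 29.1, 28.5 and 12.9 in the other classes from low to high. The choice favoured this order at the low end. A gene very low at 24 h needed a ratio above 3 to meet the 1 CPM condition at 48 h. The 9 genes with under 10 counts at 0 h, all in the lowest class, had a median ratio of 8.53. The 0.1 CPM added to each mean works the other way, since it lowers these ratios most in genes with few reads. The gene with the ratio of 29.1 had an edgeR log2 change of 6.93, estimated without that addition. Counting error is also larger in genes with few reads, and the part of each of these in this order was not tested.

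Many genes stood only just above the limit of 3. Without that limit, 10456 genes met all the other conditions, of which 10353 fell short of it. The 3 genes nearest inside had ratios of 3.014, 3.022 and 3.039, and the 3 nearest outside 2.979, 2.961 and 2.945. The gene nearest inside had mean levels of 39.6, 49.2, 148, 220 and 373 CPM from 0 h to 96 h, and the farthest of the 3 outside had 27.9, 49.7, 146, 288 and 362 CPM. The gene nearest outside had 13.0, 21.0, 62.9, 77.3 and 60.3 CPM. The ratios on both sides of the limit lie close together, while the courses before and after the second day differ from gene to gene. The number of genes also rests on the scaling, since with unscaled library sizes 50 genes met the conditions, all of them among the 103.

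Many genes with a second-day step of this size had already climbed on the first day. Of 544 genes with a 48 h mean of at least 1 CPM and of at least 3 times the 24 h mean, 379 had already reached 2 times their 0 h mean at 24 h, 5 had dropped by at least the same factor, and 160 were within the factor of 2. Among these 160, 25 climbed 3-fold or more on the third day, 12 climbed 2.5-fold or more on the last day, 15 stood too high at 48 h and 14 too high at 72 h relative to 96 h, and 6 had no count at 0 h. Some genes failed more than one of these conditions.

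ENSBTAG00000001489 had the most reads of the 103 genes at 96 h. Its level was 1270, 1230, 1140 and 1120 CPM in replicates A to D at 0 h and 1110, 1040, 1310 and 1040 CPM at 24 h. At 48 h it was 4130, 4250, 4640 and 4260 CPM. The ranges at 0 h and 24 h overlap, and all 4 libraries at 48 h lie far above both. It then stood at 5440, 5280, 5910 and 5920 CPM at 72 h and at 9010, 8990, 8810 and 8180 CPM at 96 h. The log2 change over the second day was 1.94 ± 0.0697 and that over the last day 0.634 ± 0.0675 (± standard error), so the second day gave the main step and the level was still climbing on the last.

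The genes that followed in read number had a similar course. The next one had mean levels of 469, 802, 3030, 3440 and 4420 CPM from 0 h to 96 h. The one after it had 388, 676, 2330, 2530 and 3150 CPM. Both were already higher at 24 h than at 0 h, but by less than the factor of 2 that would have removed them. Another gene among those with the most reads had a steeper course, with means of 25.3, 46.0, 597, 1500 and 1860 CPM and a 48 h over 24 h ratio of 12.9.

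ENSBTAG00000040053 had the largest second-day ratio among genes with at least 10 CPM at 48 h, 28.5. Its level was 0.817, 1.13, 1.71 and 1.24 CPM in replicates A to D at 0 h, 0.662, 0.990, 0.985 and 1.51 CPM at 24 h, and 28.3, 26.0, 36.1 and 38.7 CPM at 48 h. The 24 h values rest on 128 counts over 4 libraries and overlap with those at 0 h. It then split by batch, with 28.5, 28.5, 24.5 and 22.8 CPM at 72 h and 30.8, 29.9, 50.3 and 53.9 CPM at 96 h. Replicates C and D of batch 2 were above replicates A and B of batch 1 at 48 h and 96 h and below them at 72 h.

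A pair of genes that were lower at some step are named as well. They were chosen after their values were seen, as the extremes among genes with at least 10 CPM at 48 h. ENSBTAG00000003490 had the smallest ratio of 96 h to 48 h. Before the change of medium it lay at 26.8, 26.1, 22.2 and 26.4 CPM, and after a day at 30.7, 31.7, 42.9 and 33.5 CPM. It reached 117, 113, 126 and 118 CPM at 48 h. The 72 h libraries held 59.3, 67.2, 62.4 and 61.5 CPM and the 96 h libraries 67.8, 74.2, 77.2 and 70.6 CPM. All 4 libraries at 72 h were well below those at 48 h and above those at 24 h, so a large part of the peak was lost within a day and the rest was kept.

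ENSBTAG00000019630 had the smallest ratio of 24 h to 0 h. Its levels were 17.7, 16.3, 14.3 and 18.1 CPM at 0 h and 9.08, 9.37, 8.39 and 8.92 CPM at 24 h, with no overlap. The 48 h libraries had 36.5, 32.5, 45.9 and 38.6 CPM, the 72 h libraries 70.8, 60.4, 87.3 and 73.0 CPM, and the 96 h libraries 111, 97.3, 101 and 90.9 CPM. The gene thus dipped on the first day before its climb, with a log2 change of -0.893 ± 0.115 on that day and of 2.09 ± 0.113 on the second day (± standard error).

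**Figure D2:**
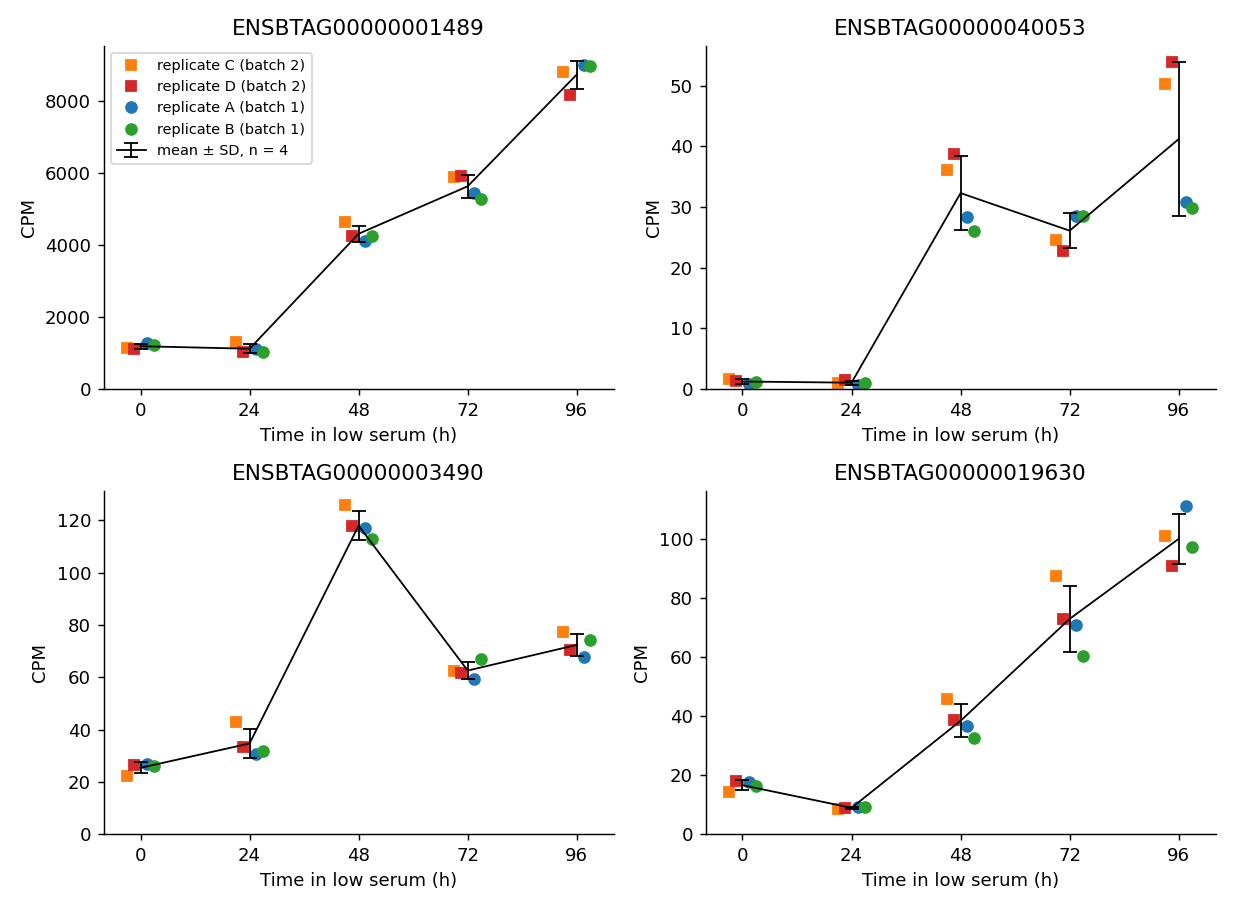
Level (CPM, linear axes from 0) of the 4 named genes in each library against time in low serum (h), with squares for batch 2, circles for batch 1 and the mean ± SD of 4 libraries in black. ENSBTAG00000001489 climbs to 8750 CPM at 96 h, ENSBTAG00000040053 splits by batch after 24 h, ENSBTAG00000003490 peaks at 118 CPM at 48 h, and ENSBTAG00000019630 dips to 8.94 CPM at 24 h.

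The first day was flat by choice only within a factor of 2, and most genes used part of that room upward. The 24 h over 0 h ratio had a median of 1.41 with quartiles of 1.17 and 1.74. For 24 h against 0 h the edgeR test called 66 of 103 genes higher and 10 lower, beside 31.7% of all genes higher and 34.5% lower. The choice bounded this contrast on both sides, but for means with 0.1 CPM added. The edgeR estimates, made without that addition, were 2-fold or more in either direction in 25 of the 103 genes. They ran from -1.21 to 2.82 on the log2 scale, and 2715 of all 14636 genes reached that size. The 66 genes had a median ratio of 1.65 over the first day and 3.82 over the second, the 10 genes had 0.561 and 4.24, and the 27 that were not called had 1.14 and 4.36. The 10 genes that were lower at 24 h recovered, and by 96 h they stood at a median of 5.94 times their 0 h level, against 8.66 times for the 66.

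After 48 h the genes parted. A total of 11 genes were highest at 48 h, 33 genes at 72 h and 59 genes at 96 h. For 72 h against 48 h the test called 62 genes higher and 4 lower, beside 20.7% and 20.8% of all genes. For 96 h against 72 h it called 33 higher and 14 lower, beside 19.3% and 18% of all genes. With library sizes alone in place of TMM, the second split became 28 higher and 22 lower, for which no share over all genes was taken. The choice had limited both steps, since it admitted no loss of more than a set size by 96 h.

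Both later steps together sorted the genes into several courses. No share over all genes was taken for these joint patterns, so their counts have no background beside them. In 26 genes the level was called higher on the third and again on the fourth day, with a median ratio of 2.34 for 96 h over 48 h. In 29 genes it was called higher on the third day alone, with a median 72 h over 48 h ratio of 1.69 and a 96 h over 72 h ratio of 1.00. In 25 genes neither step was called, and the median 96 h level was 1.05 times that at 48 h. In 7 genes a third-day gain with a median ratio of 1.96 was followed by a loss with a median ratio of 0.638 on the fourth day. Of the others, 5 were called higher and 7 lower on the fourth day alone, and 4 were called lower on the third day. For the net change of 96 h against 48 h, 62 genes were called higher and 8 lower, beside 25.3% and 24.5% of all genes, and 33 were not called.

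**Figure D3:**
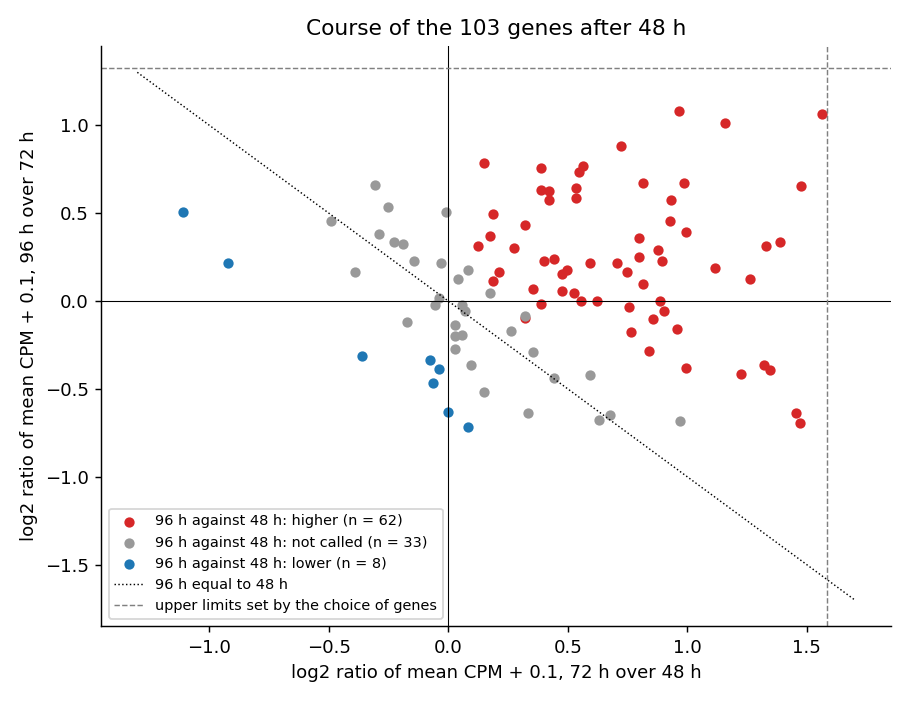
Ratio of mean levels for 96 h over 72 h against that for 72 h over 48 h (both log2 of mean CPM + 0.1) for the 103 genes, colored by the edgeR call for 96 h against 48 h. The 62 genes called higher lie mostly right of and above the dotted line of equal levels at 96 h and 48 h, the 8 called lower lie below it, and the dashed lines are upper limits that the choice of genes imposed.

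The courses differed in read number. The 26 genes that were higher on both days had a median of 16.8 CPM at 0 h and 57.1 CPM at 48 h, against 0.869 and 5.05 CPM for the 25 genes with neither step called. A change of the same size is less likely to be called in genes with few reads, and the part of this in the difference was not tested. The 59 genes highest at 96 h stood at that time at a median of 9.39 times their 0 h level. The median at 96 h was 6.57 times for the 33 highest at 72 h and 5.25 times for the 11 highest at 48 h. Sorting by the time of the highest mean favours this order by itself, since genes with an earlier high were past it at 96 h.

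**Figure D4:**
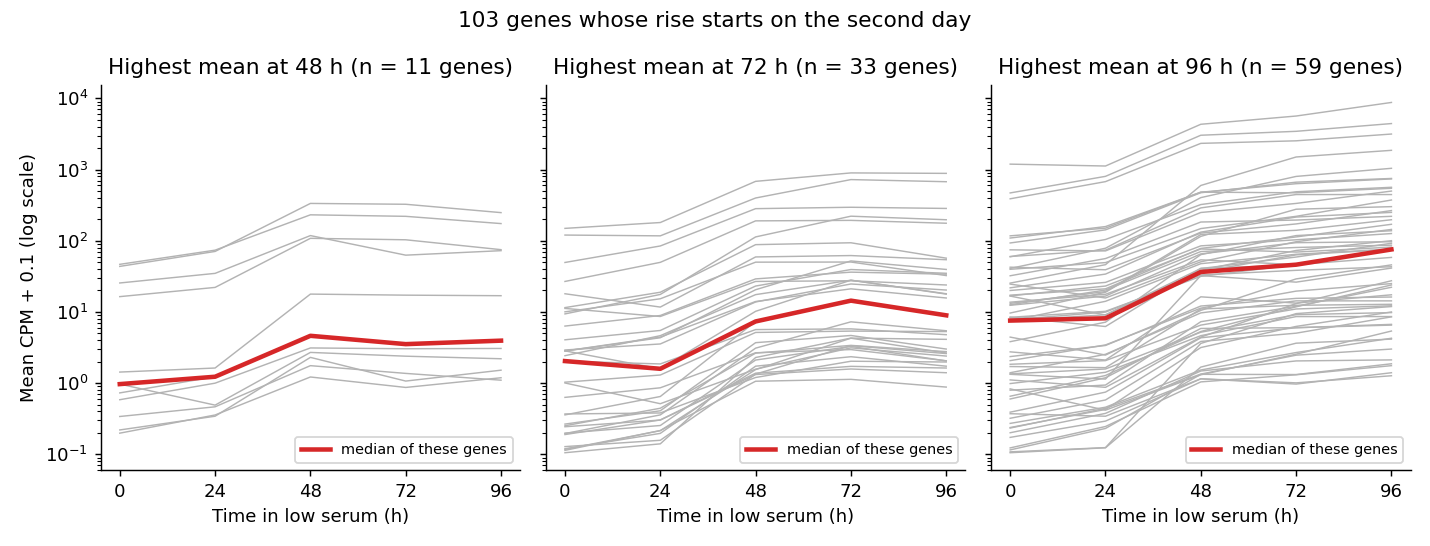
Mean level of each of the 103 genes (gray lines, CPM + 0.1 on a log axis) against time in low serum (h), in panels by the time of the highest mean, with the median of each panel in red. The panels hold 11, 33 and 59 genes. Their medians differ after 48 h, which the sorting by the time of the highest mean favours by itself.

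The same choice was then made in one batch and the steps were measured in the other, which the choice had not used. The conditions applied to the 10 libraries of batch 1 took 92 genes and those of batch 2 took 97, of which 73 and 76 were among the 103. With genes chosen in batch 1, the edgeR test in batch 2 called 91 of 92 higher at 48 h than at 24 h, where 25.1% of all genes were called higher. The median log2 change was 2.00 in batch 2, where it was measured, and 2.07 in batch 1, where the genes were chosen. The remaining gene was also higher, by 0.718, but did not pass (edgeR adjusted p = 0.160). With genes chosen in batch 2, the test in batch 1 called 97 of 97 higher, beside 27.4% of all genes, with a median log2 change of 1.99 in batch 1 and 1.95 in batch 2. The second-day step thus had nearly the same size in libraries that had no part in the choice.

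**Figure D5:**
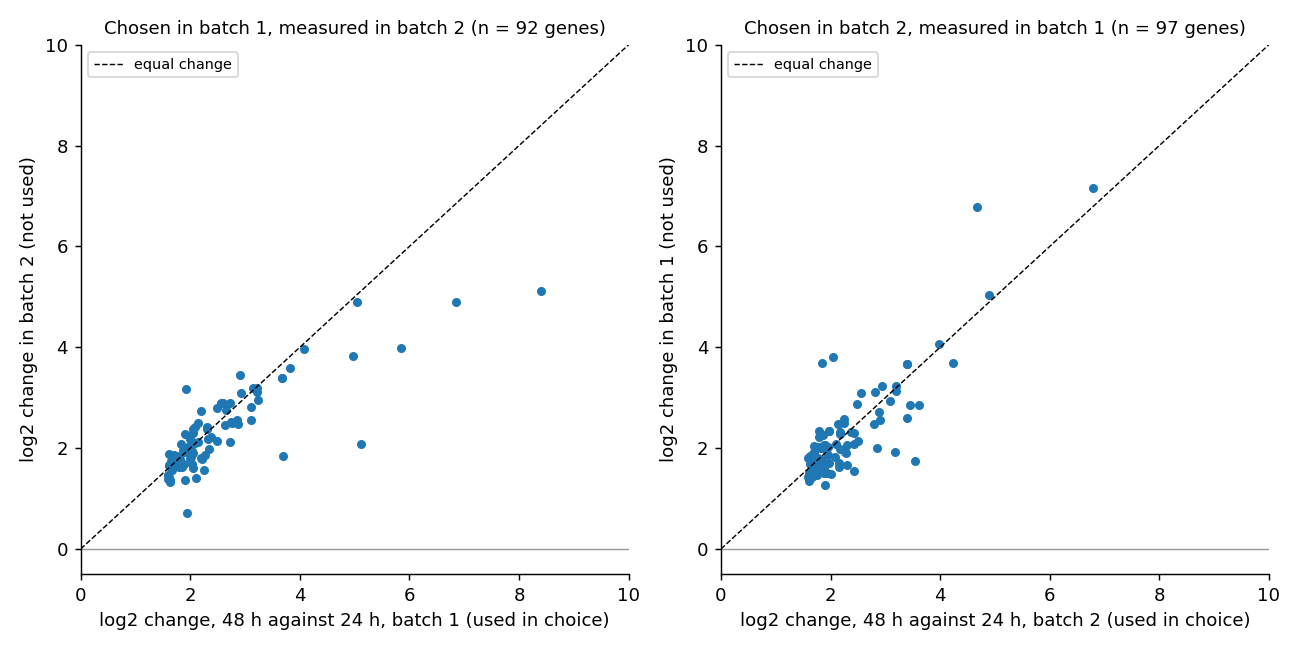
Log2 change for 48 h against 24 h in the batch not used for the choice (vertical) against the change in the batch used (horizontal), for 92 genes chosen in batch 1 (left) and 97 chosen in batch 2 (right), with a dashed line of equal change. Every point lies above 0 on the vertical axis, and the medians there are 2.00 and 1.99.

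The exact conditions carried over less well than the second-day step. Of the 92 genes chosen in batch 1, 80 were at least 3 times and 91 at least 2 times higher at 48 h in batch 2, but only 58 met all conditions there. The most frequent reason was the first day, where 19 genes reached 2 times their 0 h mean in batch 2, ahead of 12 that missed the 3-fold step. The 24 h mean of batch 2 includes replicate C, whose summed share was 0.617%, against 0.522 to 0.534% in the other libraries of that time. The part of this library in the 19 first-day failures was not tested. Of the 97 genes chosen in batch 2, 58 met all conditions in batch 1, 10 climbed 2-fold or more on the first day there and 19 missed the 3-fold step. Most failures were narrow in number, since 26 and 28 genes failed a single condition.

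First-day changes were also seen in the batch that was not used. In batch 2, 51 of the 92 genes chosen in batch 1 were called higher at 24 h than at 0 h and 5 lower, beside 24.9% and 25.5% of all genes. In batch 1, 42 of the 97 genes chosen in batch 2 were called higher and 14 lower, beside 27.4% and 30.9% of all genes. The medians of the log2 change were 0.642 in batch 2 and 0.376 in batch 1, against -0.0243 and -0.0298 over all genes. A part of these genes was thus called higher at 24 h, and the median change of all of them was below 2-fold in both batches. The batch 2 values include replicate C at 24 h, which lay apart, and its part in them was not tested. All genes are a broad background here, since 379 of 544 genes with such a second-day step climbed 2-fold or more on the first day.

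The later course was also measured in the batch that was not used. In batch 2, 49 of the 92 genes were called higher at 72 h than at 48 h and 4 lower, beside 13.2% and 12.4% of all genes, and 21 were called higher at 96 h than at 72 h and 5 lower, beside 8.72% and 8.33%. In batch 1, 48 of the 97 genes were called higher on the third day and 5 lower, beside 12.3% and 12.7%, and on the fourth day 37 were higher and 11 lower, beside 16.7% and 15.1%. The conditions allowed more gain than loss after 48 h, so more gains than losses were to be met in any library like those used. Of 58 genes chosen in batch 1 and called higher there at 96 h than at 48 h, 52 were called higher and 0 lower in batch 2, beside 15.1% and 14.2% of all genes. Of the 6 called lower, 5 were called lower in batch 2. Chosen in batch 2, 45 of 49 higher genes were called higher in batch 1 and 1 lower, beside 22.4% and 21.6% of all genes. There, 5 of 5 lower genes were called lower. Whatever their class, 60.9% of the 92 genes were called higher and 5.43% lower in batch 2 at 96 h against 48 h. For the 97 genes in batch 1 the shares were 56.7% and 13.4%.

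The time of the highest mean was the same in the other batch for 64 of 92 genes chosen in batch 1 and for 68 of 97 chosen in batch 2. Genes highest at 96 h kept that time in 47 of 58 and 49 of 61 cases. Those highest at 72 h kept it in 11 of 26 and 12 of 21, and those highest at 48 h in 6 of 8 and 7 of 15. Whatever their class, in batch 2 the 92 genes comprised 10 with a high at 48 h, 20 with one at 72 h and 62 with one at 96 h, and in batch 1 the 97 genes comprised 10, 26 and 61 in the same order. Most genes highest at 96 h were so in both batches, but a high at 96 h was common to begin with.

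The level itself differed little between batches, which the choice had not used because it averaged over them. The edgeR test for batch, with time as a term, called 15 of 103 genes higher and 3 lower in batch 2 than in batch 1, which is 17.5% of them in all, beside 19.2% of all genes. By direction the background was 10.9% higher and 8.36% lower. The size of the difference ran from 0.111 to 0.746 on the log2 scale in the 18 called genes. Over all 103 genes its median size was 0.118, against 0.0972 over all genes tested, and the difference was above 0 in 69 genes (67.0%), against 50.6% of all genes. The share of genes with a batch difference was thus near the background.

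How many of these genes were called for a batch difference in time course depended on the tool and the filter. With the filter on low counts, the edgeR batch by time test called 0 of 103, beside 0.00683% of all genes (1 gene), and DESeq2 called 2 of the 103. The edgeR count was 2 without replicate B of the 0 h group and 2 without replicate D of the 24 h group. It was 1 without replicate C of the 24 h group, 1 without replicate C of the 96 h group, and 16 without the filter on low counts. No share over all genes was taken for DESeq2 or these refits, so their counts have no background beside them. At an unadjusted p under 0.05, 17 of the 103 genes (16.5%) passed the edgeR test, beside 9.72% of all genes. ENSBTAG00000040053 came nearest (edgeR adjusted p = 0.181), with the batch split at 72 h and 96 h given above. Over all time points its mean was 23.2 CPM in the batch 2 libraries and 17.6 CPM in those of batch 1 (log2 difference 0.370 ± 0.115, ± standard error, edgeR adjusted p = 0.0304).

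With all 4 libraries, replicates of these genes were most uneven at 24 h. Without replicate C of that time, the spread over the other libraries at 24 h was below the spread of all 4 at 0 h and 72 h. It still stood above that of all genes with a similar read level. For the 33 genes that averaged 10 CPM or more at every time point, the median coefficient of variation between the 4 libraries was 8.04, 11.6, 7.31, 8.42 and 5.99% from 0 h to 96 h in time order. The 7866 genes of the whole table with that level had 7.21, 6.20, 7.15, 8.14 and 6.61% at the same times. The excess over the background was thus largest at 24 h.

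Replicate C at 24 h bore on this spread. Without it the median coefficient of variation of the 33 genes at 24 h was 7.46% over the other 3 libraries, against 5.62% for the 7866 genes, whereas without replicate A, B or D it was 13.0, 13.2 or 9.33%, against 6.74, 6.34 or 4.60%. This comparison was chosen after the values were seen. Replicate C at 24 h held the highest value of the 4 libraries in 50 of the 103 genes (48.5%), against 27.5% of all genes, and its median log2 distance from the mean of the other 3 libraries was 0.134, against 0.00946 over all genes. Without it, the median 48 h over 24 h ratio of the 103 genes was 4, 3 of them fell below a ratio of 3, and the conditions took 106 genes in place of 103. Replicate C also held the highest value most often at 48 h (48 genes), at 72 h (47 genes) and at 96 h (39 genes), where it did so in 32.4, 30.5 and 27.3% of all genes.

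Genes that met all conditions except the limit on the first-day rise were set beside this group. There were 281 of them, with a median 24 h over 0 h ratio of 6.39, against 1.41 in the 103 genes, and a median 48 h over 24 h ratio of 5.19, against 3.90. After 48 h their medians were close to those of the 103 genes, with 96 h over 48 h ratios of 1.54 in the 281 and 1.48 in the 103. At 24 h replicate C was the highest library in 232 of the 281 genes (82.6%). In batch, 24.2% of the 281 were called different, against 17.5% of the 103. These differences between both groups were not tested.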

How the data were processed

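PolyA RNA libraries (stranded mRNA kit, 75 bp reads) of 5 time points with 4 replicates each were used. The table deposited by the authors gave unnormalized whole-number counts of reads for each gene. Per the submitters' processing notes, the authors used STAR 2.7 and featureCounts with the genome build bosTau9; settings, strand and annotation version were not given in the sources used here. That table held 0 rows that name no gene, and 0 columns lay outside the 20 samples.

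With edgeR 4.0.16 in R 4.3.3, a filter on low counts (filterByExpr by time point, minimum count 10, minimum total 15) was applied, and TMM factors scaled the library sizes behind CPM. The condition of at least 1 CPM at 48 h was applied after 0.1 CPM had been added. A robust quasi-likelihood model with time and batch was fitted to all 20 libraries. Calls used two-sided F-tests with Benjamini-Hochberg adjustment over all genes at 0.05. For the choice in one batch, filter, scaling and model were rebuilt on the 10 libraries of each batch, with time alone. The batch by time test used all interaction terms jointly. DESeq2 1.42.0, other scalings, filters, offsets and limits, and refits without each library were tried as alternatives. The fits were tested on simulated data.

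The genes and lists were chosen with earlier results of these data known. The lists of muscle and cell type genes could not be applied without symbols. Without symbols, the naming rule took the gene with the highest 96 h mean and that with the largest 48 h over 24 h ratio at 10 CPM or more at 48 h.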

Additional observations from a re-analysis of the deposited data

Results flagged for a closer look

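Dixon's test at the 95% level was run on 35 sets of 4 replicates and marked 3 single libraries as lying apart; about 1 set in 20 is marked by chance. Of its counts, replicate C of the 24 h group held 0.617% in the 103 genes, against 0.522 to 0.534% in the other libraries of that time. In the same library the 3 genes with the most reads held 0.345%, against 0.295 to 0.297%. ENSBTAG00000003490 had 22.2 CPM in replicate C of the 0 h group, against 26.1 to 26.8 CPM in the others.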

How the results depend on the processing

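Membership depended on the scaling and the limit. Unscaled library sizes put the median second-day change over all genes at -0.321 on the log2 scale, and 50 genes then met the conditions, all among the 103. The median change of the 103 genes was then 1.79, and all 103 stayed above 0. In the choice by batch, unscaled library sizes left 49 genes called higher in batch 2 of 49 chosen in batch 1, and 45 of 45 the other way. A limit of 2.5 took 171 genes and a limit of 4 took 47. An offset of 1 CPM took 90 genes, of which 65 were among the 103. A count in each library at 0 h, an alternative chosen after the data were seen, left 93. RLE scaling took 104.

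Without the low-count filter, 29 members were called between batches and 16 in the batch by time test, and DESeq2 called 2 in the batch by time test. The cause of these differences was not tested. No share over all genes was taken under the alternative settings of this section, so their counts of members have no background beside them. When 1 library at a time was left out, the conditions took 91 to 106 genes, of which 90 to 101 were among the 103. The members called then numbered 69 to 78 on the first day, 103 to 103 on the second, 58 to 68 on the third, 43 to 53 on the last day, 12 to 24 between batches, and 0 to 2 in the batch by time test. The batch by time test called 2 without replicate B at 0 h, 2 without replicate D at 24 h, 1 without replicate C at 24 h and 1 without replicate C at 96 h. In all, 177 alternative values were within a factor of 1.5 of the main count and 12 were outside it. Where the main count was 0, as in the batch by time test, any other count was taken as outside. The 177 include the second-day calls, which were 103 in every setting and which the choice had fixed.

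The replicate letters were not taken as pairs. Deviations of libraries with the same letter had a median correlation of 0.297 (range -0.535 to 0.758, 23 of 40 over 0.1), and the own letter gave the best correlation in 8 of 20 libraries. With the letter as a replicate block in place of batch, 77, 103, 65 and 48 members were called on the successive days.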
